A study of Mus musculus with 12 samples.

Results

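The genes described here encode tau, other microtubule-associated proteins, and the kinases and phosphatase that act on tau. They were chosen by symbol as a list of 10: Mapt, Map1b, Map2, Gsk3a, Gsk3b, Cdk5, Cdk5r1, Mark1, Fyn and Ppp2ca. All 10 were found among the 24736 symbols of the hippocampal total RNA table, and all 10 passed the filter on low counts. RNA came from the hippocampus of male mice aged 4 months. One group of 3 libraries came from APP/PS1 mice, whose transgenes include APPswe, an amyloid precursor protein with the Swedish mutation. The other group of 3 libraries came from wild-type (WT) littermates. The APP/PS1 libraries are numbered 1, 2 and 3 and the WT libraries 1, 2 and 4. Constructs of this kind are usually driven by sequences of the prion protein gene, so that the transgene is expressed widely in the brain.

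Tau, the product of Mapt, binds along axonal microtubules, and MAP2 takes the same place in dendrites. Phosphorylation of tau by GSK3, CDK5 and MARK kinases loosens it from microtubules, and protein phosphatase 2A removes most of these phosphates. In Alzheimer's disease hyperphosphorylated tau collects in tangles, while APP/PS1 mice are known for amyloid plaques without tangles. The measurements here are of RNA and say nothing of phosphorylation or protein.

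The libraries held 120958765 to 146904552 estimated counts. App stood at 3170, 3465 and 2948 CPM in APP/PS1 replicates 1, 2 and 3, against 1580, 1522 and 1548 CPM in WT replicates 1, 2 and 4, so every APP/PS1 library carried more App RNA than every WT library. CPM here is the estimated count scaled to the TMM-adjusted library size. APP/PS1 replicate 3 stood apart. Of 12 genes that mark cerebellar neurons, all 12 were highest in that library, and their summed level was 191 and 219 CPM in APP/PS1 replicates 1 and 2 and 4401 CPM in APP/PS1 replicate 3, against 177 to 240 CPM in the WT libraries (the sum is over the 11 that passed the filter). Gabra6, a GABA-A receptor subunit of cerebellar granule cells that the filter removed, stood at 283 CPM in APP/PS1 replicate 3. It was at 0.0338 and 0 CPM in APP/PS1 replicates 1 and 2, against at most 0.329 CPM in WT libraries. A list of 12 hippocampal marker genes, added after these values were seen, was lowest in APP/PS1 replicate 3 for all 12, with summed levels of 1319, 1140 and 697 CPM in APP/PS1 replicates 1, 2 and 3, against 1149 to 1241 CPM in WT libraries. That library is therefore labelled hippocampus but also carried RNA of cerebellar genes, and the fold changes, ratios and list medians below are given with and without it. Summed levels of 15 neuronal markers were 12047, 10650 and 8316 CPM in APP/PS1 replicates 1, 2 and 3, against 11616 to 12365 CPM in WT libraries. Camk2a, the largest part of that sum, stood at 2259 CPM in APP/PS1 replicate 3, against 4215 to 5301 CPM in the other libraries. Syt1, Syn1, Nefl, Nefm, Slc17a7 and Gad2 were also lowest there. Rbfox3, Snap25, Stmn2, Elavl3, Nefh and Gad1 were instead highest in that library, so single neuronal markers went both ways. Those of 14 myelin markers were 2954 to 3621 CPM in APP/PS1 libraries and 3112 to 4540 CPM in WT libraries, with WT replicate 1 highest. Summed levels of 12 neocortical markers were 284 to 448 CPM in APP/PS1 libraries and 529 to 676 CPM in WT libraries. The largest part was Mef2c, at 101, 121 and 70.6 CPM in APP/PS1 replicates 1, 2 and 3, against 203, 206 and 260 CPM in WT replicates 1, 2 and 4. Tbr1 and Lamp5 were also lower in every APP/PS1 library, while the other neocortical markers overlapped between the groups. Summed levels of 10 choroid plexus markers were 1882 to 4203 CPM in APP/PS1 and 1571 to 1887 CPM in WT. Astrocyte markers summed to 6574 to 8048 CPM in APP/PS1 and 7735 to 8521 CPM in WT libraries, and endothelial markers to 217 to 259 CPM in APP/PS1 and 222 to 250.5 CPM in WT. Slc1a2, the largest part of the astrocyte sum, was lowest in APP/PS1 replicate 3 at 3925 CPM, and Gfap and Fgfr3 were lowest there too. Slc1a3, Aldoc, S100b and Aqp4 were highest in that library. The part of these tissues and cells in the results below was not tested.

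None of the 10 genes differed between APP/PS1 and WT hippocampus by a margin that passed the test. With edgeR's quasi-likelihood test and Benjamini-Hochberg adjustment over all 18060 genes tested, 0 of the 10 had an adjusted p under 0.05, where 0.00554% of all genes did. At an unadjusted p under 0.05 the count was also 0 of 10, where 3.42% of all genes passed. App missed the adjusted threshold in the same fit, with a log2 fold change of 1.04 (SE 0.091; edgeR adjusted p = 0.117). So did Prnp, the prion protein gene, at 1.04 (SE 0.10; edgeR adjusted p = 0.165). A gene that was not called may therefore still differ between the groups. DESeq2 called 0 of the 10, where it called 0.114% of all genes, and limma-voom also 0, where it called 0.00554%. Either tool had 0 of 10 at an unadjusted p under 0.05, where DESeq2 had 4.4% and limma-voom 3.43% of all genes. The 10 log2 fold changes, APP/PS1 over WT, ran from -0.25 for Gsk3a to 0.057 for Ppp2ca with a median of -0.062, beside a median of 0.011 over all genes tested. Of the 10, 8 were below 0, as were 47.7% of all genes. Without APP/PS1 replicate 3 the median was 0.0029, with 4 of 10 below 0, where 50.3% of all genes were, and 0 of 10 called, where 0.0273% of all genes were called. In that fit 0 of 10 had an unadjusted p under 0.05, where 4.03% of all genes did, and edgeR's adjusted p was 0.995 or more for each.

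**Figure D1:**
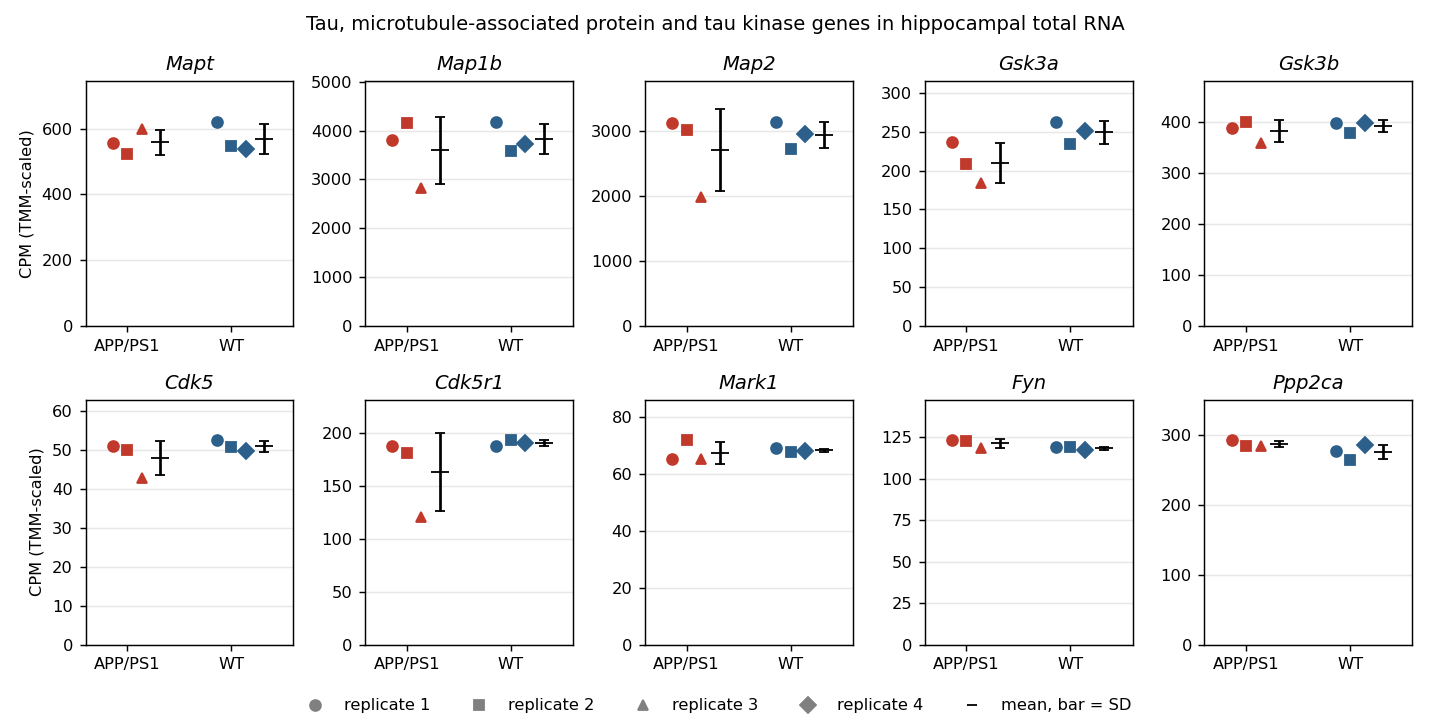
Level of each gene (CPM after TMM scaling, y axis from 0) in the 3 APP/PS1 libraries (left, red) and the 3 WT libraries (right, blue), with marker shapes for the replicate number and the mean ± SD beside the points. The triangle, APP/PS1 replicate 3, lies below all other points for 7 genes, most clearly for Map2, Map1b and Cdk5r1, while Mapt lies within the range of the other libraries.

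Mapt encodes tau itself (chromosome 11, 104229409 to 104332090, mm10). It stood at 556, 522 and 598 CPM in APP/PS1 replicates 1, 2 and 3, against 620.3, 546 and 536 CPM in WT replicates 1, 2 and 4. The highest value belonged to a WT library and the lowest to an APP/PS1 library, and the groups overlapped. The APP/PS1 mean was 559 ± 37.9 CPM, against a WT mean of 568 ± 45.9 CPM (SD over 3 libraries each). Its log2 fold change was -0.022 (SE 0.093; edgeR adjusted p = 0.962). The 95% interval of the log2 fold change from limma-voom ran from -0.25 to 0.20, or from 0.842-fold to 1.15-fold. Leaving out APP/PS1 replicate 3 gave -0.078 (SE 0.081; edgeR adjusted p = 0.995). Tau RNA was thus not among the genes with low values in that library.

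Map2 encodes the dendritic microtubule-associated protein (chromosome 1, 66175202 to 66442583). It stood at 3124, 3020.0 and 1981 CPM in APP/PS1 replicates 1, 2 and 3, against 3145, 2731 and 2953 CPM in WT replicates 1, 2 and 4. Only APP/PS1 replicate 3 lay outside the range of the WT libraries. Its log2 fold change was -0.12 (SE 0.18; edgeR adjusted p = 0.900), or 0.058 (SE 0.078; edgeR adjusted p = 0.995) without APP/PS1 replicate 3. In a bulk sample of tissue, fewer neurons and less Map2 RNA per neuron cannot be told apart. In APP/PS1 replicate 3 the summed neuronal and hippocampal markers were also lowest, while the cerebellar sum was highest, as given above. Single neuronal markers went both ways there. The part of these tissues and cells in the Map2 values was not tested.

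Map1b, which encodes a microtubule-associated protein of growing axons and dendrites (chromosome 13, 99421464 to 99516602), was also lowest in APP/PS1 replicate 3. It stood at 3811, 4151 and 2828 CPM in APP/PS1 replicates 1, 2 and 3, against 4179, 3581 and 3733 CPM in WT replicates 1, 2 and 4. The other 2 APP/PS1 libraries lay within the WT range. The APP/PS1 mean was 3596.5 ± 687 CPM, against a WT mean of 3831 ± 310.5 CPM (SD over 3 libraries each). On the log2 scale the fold change was -0.091 (SE 0.16; edgeR adjusted p = 0.910), or 0.051 (SE 0.088; edgeR adjusted p = 0.995) without APP/PS1 replicate 3.

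The promoters of these 2 genes are shown because both were lowest in APP/PS1 replicate 3. That library was lowest for 7 of the 10 genes, so this does not set the 2 apart from the others. RefSeq's table for GRCm38.p6, the same build as mm10, gave promoters of 7 of the 10 genes (not Mapt, Cdk5 and Cdk5r1), from 250 bases before to 50 after an annotated start. For Map1b, Gsk3a and Gsk3b that start is the outer end of the locus given above or below, and for Map2 it lies inside the locus. The sequences run 5′ to 3′ on the gene's strand. Capitals mark the GC box GGGCGG and the CCAAT box CCAAT on either strand.
Map2 (chr1:66175079-66175378, plus strand): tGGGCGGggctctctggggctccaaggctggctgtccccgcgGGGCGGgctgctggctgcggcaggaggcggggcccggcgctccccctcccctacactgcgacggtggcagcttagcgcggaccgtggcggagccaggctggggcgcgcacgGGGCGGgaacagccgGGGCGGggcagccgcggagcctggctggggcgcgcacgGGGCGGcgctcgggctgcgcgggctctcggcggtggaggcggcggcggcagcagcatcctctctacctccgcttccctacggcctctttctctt
Map1b (chr13:99516553-99516852, minus strand): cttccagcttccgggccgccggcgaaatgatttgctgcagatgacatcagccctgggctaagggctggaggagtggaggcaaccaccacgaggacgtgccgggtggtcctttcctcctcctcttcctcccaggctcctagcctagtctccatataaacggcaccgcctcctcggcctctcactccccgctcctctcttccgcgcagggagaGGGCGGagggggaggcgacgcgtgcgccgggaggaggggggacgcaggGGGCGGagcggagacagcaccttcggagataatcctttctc
The Map2 window held 5 GC boxes and no CCAAT box, and the Map1b window held 2 GC boxes and no CCAAT box. GC boxes were present in 35.7% and CCAAT boxes in 37.4% of the 32841 RefSeq promoter windows of this length. Both windows are rich in CpG, with 37 CpG dinucleotides in Map2 and 23 in Map1b, beside a median of 7 over all windows. Every other member window also exceeded that median, from 14 in Gsk3a to 64 in a Mark1 window, so this does not set the 2 genes apart. The box matches describe the letters in the window and no binding was measured.

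**Figure D2:**
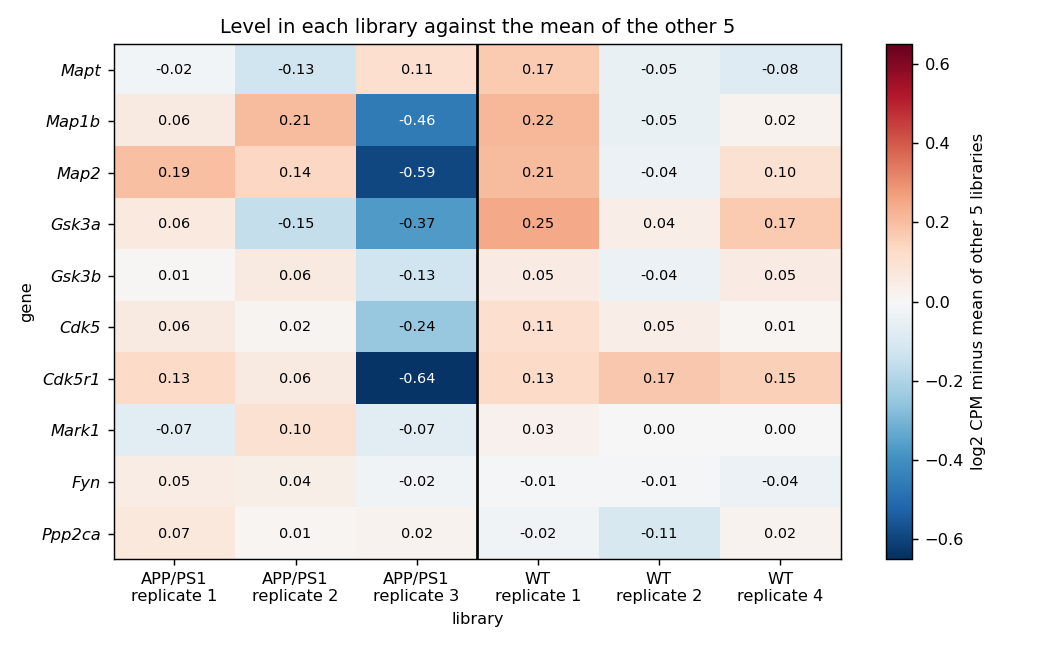
Level of each gene in each library as log2 CPM minus the mean of the other 5 libraries (colour and printed value; rows are genes, columns are libraries, APP/PS1 left of the line and WT right). The column of APP/PS1 replicate 3 holds the lowest values, down to -0.64 for Cdk5r1 and -0.59 for Map2, but 0.11 for Mapt.

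APP/PS1 replicate 3 was the lowest of the 6 libraries for 7 of the 10 genes and the highest for 0. Among 9987 genes with a mean of at least 10 CPM it was lowest for 34.4% and highest for 34.3%, so extreme values in it were common in both directions. In log2 units its gap to the average of the other 5 libraries was widest for Cdk5r1 (-0.64), Map2 (-0.59), Map1b (-0.46), Gsk3a (-0.37) and Cdk5 (-0.24). Fyn, Mark1 and Ppp2ca lay at -0.023, -0.068 and 0.021 there, and Mapt at 0.11. WT replicate 1 was the highest library for 5 of the 10 and for 14.8% of those 9987 genes.

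The GSK3 kinases phosphorylate tau at many of the sites found in tangles. Gsk3a, the alpha form (chromosome 7, 25228258 to 25237851), had the largest fold change of the 10. It stood at 236, 209 and 184 CPM in APP/PS1 replicates 1, 2 and 3, against 263, 234 and 251 CPM in WT replicates 1, 2 and 4. Of the APP/PS1 libraries, 2 lay below all WT libraries and replicate 1 lay just above the lowest WT library, so the groups overlapped by that 1 library. The APP/PS1 mean was 209.7 ± 25.9 CPM, against a WT mean of 249 ± 14.7 CPM (SD over 3 libraries each). The log2 fold change was -0.25 (SE 0.11), with an unadjusted p of 0.0575 in edgeR's test and an adjusted p of 0.887. In limma-voom its 95% interval ran from -0.52 to 0.0072. Without APP/PS1 replicate 3 the log2 fold change was -0.17 (SE 0.082; edgeR adjusted p = 0.995), and over the 15 other settings it stayed below 0, from -0.34 to -0.16. Cdk5, Cdk5r1, Fyn and Ppp2ca also kept their sign in every setting, and all settings draw on the same libraries. The long noncoding gene 9130221H12Rik overlaps Gsk3a and held 7.60% as many estimated counts. The strand setting of the counting is not given in the sources used here.

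Gsk3b, the beta form (chromosome 16, 38089001 to 38246084), stood at 387, 399 and 358 CPM in APP/PS1 replicates 1, 2 and 3, against 398, 378 and 397 CPM in WT replicates 1, 2 and 4. The groups overlapped, with the highest and the lowest value both in APP/PS1. The log2 fold change was -0.035 (SE 0.075; edgeR adjusted p = 0.929), and limma-voom's 95% interval ran from -0.22 to 0.15. Leaving out APP/PS1 replicate 3 gave 0.0047 (SE 0.057; edgeR adjusted p = 0.995).

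Because both forms were counted in the same library, their ratio does not depend on library size. It compares the balance of the forms between libraries and not their levels, since the counts are not set per transcript length. The ratio of Gsk3b to Gsk3a was 1.64, 1.92 and 1.94 in APP/PS1 replicates 1, 2 and 3, against 1.51, 1.62 and 1.58 in WT replicates 1, 2 and 4. All 3 APP/PS1 libraries lay above all 3 WT libraries, with APP/PS1 replicate 1 next to the highest WT library. The means were 1.83 ± 0.168 in APP/PS1 and 1.57 ± 0.0522 in WT (SD, n = 3 each), a difference of 0.22 on the log2 scale. A two-sided exact permutation test gave p = 0.1, which is the smallest that 3 against 3 libraries allow, and 0.4 after Benjamini-Hochberg adjustment over the 4 ratios computed. With APP/PS1 replicate 3 left out the difference was 0.17 and the groups still did not overlap. In those 5 libraries 19.2% of all single genes did not overlap either, and no such share was computed for ratios.

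The promoters of the GSK3 pair are shown because the ratio of these genes did not overlap between the genotypes. Their windows differ in these boxes, but a link between the boxes and the ratio was not tested. Capitals mark the same boxes as above.
Gsk3a (chr7:25237802-25238101, minus strand): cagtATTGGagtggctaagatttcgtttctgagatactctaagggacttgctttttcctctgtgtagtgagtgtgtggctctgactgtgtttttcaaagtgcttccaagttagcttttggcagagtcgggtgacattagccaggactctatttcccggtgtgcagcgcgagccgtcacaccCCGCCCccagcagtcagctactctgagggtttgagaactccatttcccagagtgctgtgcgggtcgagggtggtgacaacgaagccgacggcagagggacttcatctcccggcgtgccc
Gsk3b (chr16:38088751-38089050, plus strand): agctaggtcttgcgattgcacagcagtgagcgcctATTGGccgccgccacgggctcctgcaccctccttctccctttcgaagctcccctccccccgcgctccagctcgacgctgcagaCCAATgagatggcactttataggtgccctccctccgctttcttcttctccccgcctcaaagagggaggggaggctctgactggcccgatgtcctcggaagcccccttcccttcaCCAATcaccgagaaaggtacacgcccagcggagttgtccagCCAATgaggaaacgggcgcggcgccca
The Gsk3a window held 1 GC box and 1 CCAAT box, while the Gsk3b window held 4 CCAAT boxes and no GC box. Their GC contents were 54.3% and 63.0%, beside a median of 52.7% over all windows. Across the members, 7 of 8 windows (Mark1 has 2) held a GC box and 3 of 8 a CCAAT box.

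**Figure D3:**
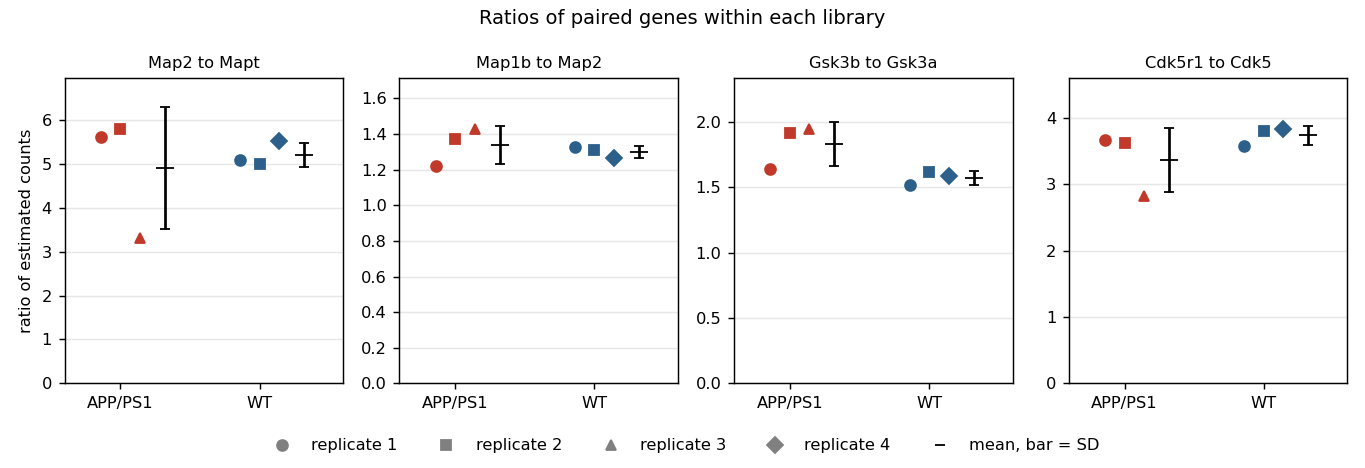
Ratio of estimated counts of paired genes within each library (y axis from 0, no unit), APP/PS1 left and WT right, with the mean ± SD beside the points. For Gsk3b to Gsk3a the 3 APP/PS1 ratios, 1.64 to 1.94, lie above the 3 WT ratios, 1.51 to 1.62, while APP/PS1 replicate 3 lies below all other libraries for Map2 to Mapt and for Cdk5r1 to Cdk5.

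CDK5 is a kinase of postmitotic neurons that needs an activator, p35, the product of Cdk5r1. Cdk5r1 (chromosome 11, 80477023 to 80481184) stood at 187.36, 180.5 and 120.6 CPM in APP/PS1 replicates 1, 2 and 3, against 187.44, 193 and 190.4 CPM in WT replicates 1, 2 and 4. All 3 APP/PS1 libraries lay below all 3 WT libraries, but APP/PS1 replicate 1 did so by less than 0.1 CPM. Non-overlapping groups in this direction were found for 1 of the 10 genes and for 4.76% of all genes. The log2 fold change was -0.22 (SE 0.17; edgeR adjusted p = 0.887), and -0.052 (SE 0.055; edgeR adjusted p = 0.995) without APP/PS1 replicate 3.

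Cdk5 itself (chromosome 5, 24407597 to 24423587) stood at 51.0, 49.9 and 42.8 CPM in APP/PS1 replicates 1, 2 and 3, against 52.4, 50.6 and 49.7 CPM in WT replicates 1, 2 and 4. The groups overlapped, and APP/PS1 replicate 3 was lowest. The log2 fold change was -0.089 (SE 0.090; edgeR adjusted p = 0.887), or -0.018 (SE 0.066; edgeR adjusted p = 0.995) without that library. The locus overlaps Abcb8 and Asic3, which held 54.2% and 3.07% as many estimated counts as Cdk5, so reads of Cdk5 and Abcb8 may not be fully separated. The ratio of Cdk5r1 to Cdk5 was 3.67, 3.62 and 2.82 in APP/PS1 replicates 1, 2 and 3, against 3.57, 3.81 and 3.83 in WT replicates 1, 2 and 4. The exact permutation test gave p = 0.3 for it, or 0.6 after adjustment over the 4 ratios, and the log2 difference of -0.16 was -0.034 without APP/PS1 replicate 3.

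Among the remaining kinases, Mark1 encodes an affinity-regulating kinase that phosphorylates tau in its microtubule-binding repeats (chromosome 1, 184896424 to 184999954). It stood at 65.3, 71.8 and 65.2 CPM in APP/PS1 replicates 1, 2 and 3, against 69.0, 67.8 and 68.0 CPM in WT replicates 1, 2 and 4. The WT values lay inside the APP/PS1 range, and the log2 fold change was -0.018 (SE 0.074; edgeR adjusted p = 0.961). With APP/PS1 replicate 3 left out it was 0.0011 (SE 0.069; edgeR adjusted p = 0.998).

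Fyn encodes a Src-family tyrosine kinase that binds tau and phosphorylates NMDA receptors at the synapse (chromosome 10, 39369743 to 39565381). It stood at 123.1, 122.5 and 118.2 CPM in APP/PS1 replicates 1, 2 and 3, against 118.83, 118.80 and 117 CPM in WT replicates 1, 2 and 4. APP/PS1 replicates 1 and 2 lay above all WT libraries and replicate 3 within their range. The 6 values differed by at most 1.05-fold, the narrowest range of the 10 genes. Its log2 fold change was 0.036 (SE 0.065; edgeR adjusted p = 0.913), with a 95% interval from limma-voom of -0.12 to 0.19. With APP/PS1 replicate 3 left out it was 0.050 (SE 0.054; edgeR adjusted p = 0.995), and the groups did not overlap. With 5 libraries that held for 2 of the 10 genes, Fyn and Cdk5r1, and for 19.2% of all genes.

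Ppp2ca encodes the alpha catalytic subunit of protein phosphatase 2A, the main tau phosphatase (chromosome 11, 52098824 to 52122749). It stood at 292, 283 and 284 CPM in APP/PS1 replicates 1, 2 and 3, against 277, 264 and 285 CPM in WT replicates 1, 2 and 4. WT replicate 2 was the lowest library and the groups overlapped. Its log2 fold change was 0.057 (SE 0.068; edgeR adjusted p = 0.887), and 0.058 (SE 0.059; edgeR adjusted p = 0.995) without APP/PS1 replicate 3. Limma-voom's 95% interval for all 6 libraries ran from 0.927-fold to 1.17-fold.

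**Figure D4:**
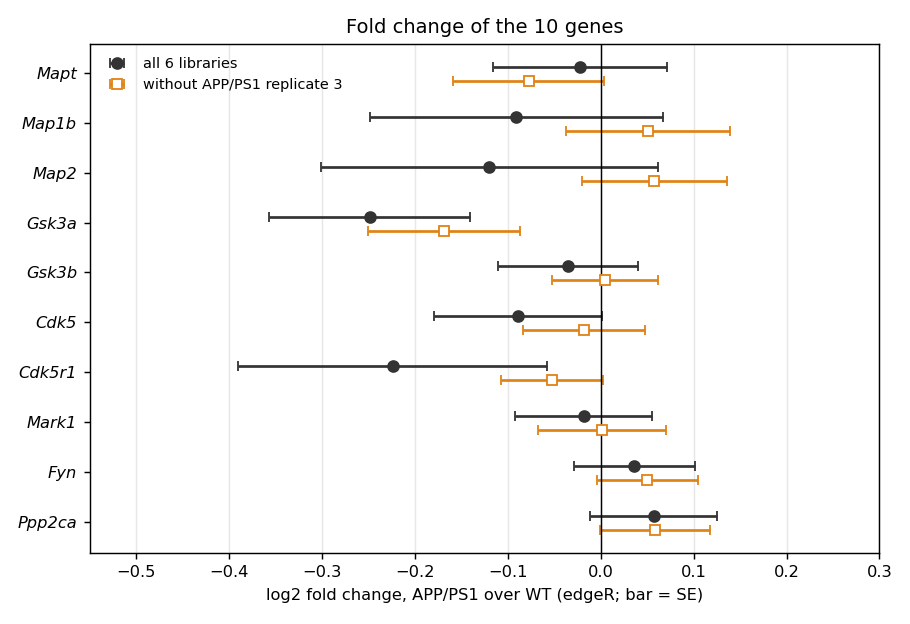
Log2 fold change, APP/PS1 over WT, of each gene from edgeR with all 6 libraries (filled circles) and without APP/PS1 replicate 3 (open squares), with bars for the SE. Gsk3a lies at -0.25 and -0.17, Cdk5r1 at -0.22 and -0.052, and Map2 at -0.12 and 0.058.

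The balance of the microtubule-associated proteins also turned on the same library. The ratio of Map2 to Mapt was 5.62, 5.78 and 3.31 in APP/PS1 replicates 1, 2 and 3, against 5.07, 5.001 and 5.51 in WT replicates 1, 2 and 4. Replicates 1 and 2 of APP/PS1 lay above and replicate 3 below all WT libraries, and the exact permutation test gave p = 1. The log2 difference was -0.13 with and 0.14 without APP/PS1 replicate 3. Map1b to Map2 was steadier, at 1.22 to 1.43 in APP/PS1 libraries and 1.26 to 1.33 in WT libraries (exact permutation p = 0.7). Its log2 difference was 0.040 with and -0.0068 without APP/PS1 replicate 3.

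The patterns over the 6 libraries were compared as log2 CPM centred on each gene's mean, with the root mean square (RMS) difference as the measure of likeness and all 6 libraries included. Of the 45 pairs among the 10 genes, Gsk3b and Mark1 had the smallest difference at 0.041, then Fyn and Ppp2ca at 0.042. Gsk3b, Mark1, Fyn and Ppp2ca also varied least of the 10, by at most 1.12-, 1.10-, 1.05- and 1.11-fold. Genes that vary little have small differences by this measure, so it does not show a shared pattern for them. Mapt and Cdk5r1 differed most at 0.29, then Mapt and Map2 at 0.27. In APP/PS1 replicate 3 Mapt lay at 0.089 and Cdk5r1 at -0.53 from its mean. The differences were not computed without that library. Among 9986 other genes with a mean of at least 10 CPM, the 5 nearest to Mapt were Adprh (0.018), Anapc11 (0.024), Pigb (0.027), Patl1 (0.028) and Ctsb (0.030), by RMS difference in log2 units over the 6 libraries. Adprh encodes an ADP-ribosylarginine hydrolase, Anapc11 a subunit of the anaphase-promoting complex, and Ctsb the lysosomal protease cathepsin B.

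The wider pathway was read from 7 lists, and no gene of any list passed edgeR's test over all genes, nor with DESeq2, limma-voom or without APP/PS1 replicate 3. At an unadjusted p under 0.05 edgeR had 3 genes in all 7 lists. Cdk5r2 (1 of 22 CDK5 and GSK3 regulators tested) and Ppp3cc (1 of 29 phosphatase genes) were lower in APP/PS1. Ptprc (1 of 18 Src-family genes and Fyn regulators) was higher. The lists of 37 other microtubule-associated genes, 16 tubulins, 43 other tau kinases and 24 genes of tau turnover and acetylation had 0. The share of all genes was 1.52% lower and 1.9% higher. Of 22 tested regulators of CDK5 and GSK3, 12 had fold changes above 0 and 10 below, with a median log2 fold change of 0.024, or -0.0050 without APP/PS1 replicate 3. Cdk5r2, which encodes p39, the other CDK5 activator, stood at 138, 123 and 91.4 CPM in APP/PS1 replicates 1, 2 and 3, against 153, 157 and 152 CPM in WT replicates 1, 2 and 4. All APP/PS1 libraries lay below all WT libraries, as for Cdk5r1. That held for 1 of the 22 regulators and for 4.76% of all genes. The opposite held for 0 of the 22 and for 1017 of all 18060 genes tested. The log2 fold change of Cdk5r2 was -0.39 (SE 0.15; edgeR adjusted p = 0.887). Without APP/PS1 replicate 3 it was -0.24 (edgeR adjusted p = 0.995). Cdk5rap2, a centrosomal protein that binds p35, had 0.38 (SE 0.22), or 0.058 without that library.

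Of 43 other tau kinases tested, 18 lay above 0 and 25 below, with a median of -0.012, or -0.024 without APP/PS1 replicate 3. Dyrk1b, a kinase of the DYRK family, had a log2 fold change of -0.22 (SE 0.10), or -0.18 without that library. Mapk12, a p38 kinase, stood at 3.12, 2.87 and 17.7 CPM in APP/PS1 replicates 1, 2 and 3, against 2.66 to 3.57 CPM in WT libraries. Its log2 fold change of 1.36 (SE 0.72) was -0.042 without APP/PS1 replicate 3. Of 29 phosphatase genes, 16 lay above 0 and 13 below, with a median of 0.0048, or 0.031 without APP/PS1 replicate 3. Ppp3cc, a calcineurin catalytic subunit, stood at 16.3, 17.7 and 17.6 CPM in APP/PS1 replicates 1, 2 and 3, against 19.4, 20.5 and 20.1 CPM in WT replicates 1, 2 and 4, with a log2 fold change of -0.22 (SE 0.083; edgeR adjusted p = 0.887). Its groups did not overlap, and without APP/PS1 replicate 3 the log2 fold change was -0.24. Lower values without overlap were found for 4 of the 29 phosphatase genes and for 4.76% of all genes. Higher values without overlap were found for 2 of the 29 and for 1017 of all 18060 genes tested. Ppme1, which removes the methyl group from the phosphatase 2A catalytic subunit, had a log2 fold change of -0.18 (SE 0.10). It was -0.12 without APP/PS1 replicate 3, and leaving out WT replicate 4 gave -0.10.

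Of 37 other microtubule-associated genes, 13 lay above 0 and 24 below, with a median of -0.078, or -0.041 without APP/PS1 replicate 3. Leaving out WT replicate 1 gave -0.035. Stmn3, a stathmin that sequesters tubulin, stood at 171, 181 and 184 CPM in APP/PS1 replicates 1, 2 and 3, against 203, 201 and 195 CPM in WT replicates 1, 2 and 4. Its groups did not overlap, and the log2 fold change of -0.16 (SE 0.069; edgeR adjusted p = 0.887) was -0.19 without APP/PS1 replicate 3. Among these 37 genes, 1 was lower and 2 were higher in APP/PS1 without overlap. Of all genes, 4.76% were lower without overlap, and 1017 of all 18060 tested were higher without overlap. Tppp, a tubulin polymerization protein of oligodendrocytes, had a log2 fold change of -0.34 (SE 0.16), or -0.20 without APP/PS1 replicate 3, and its highest library was WT replicate 1, which was also highest in myelin markers. Among 16 tubulins, 7 lay above 0 and 9 below, with a median of -0.054. That median was 0.021 without APP/PS1 replicate 3 and 0.011 with quality weights. Tubb3, the neuronal beta tubulin, had -0.24 (SE 0.11), or -0.16 without APP/PS1 replicate 3, and Tuba8 had 0.99 (SE 0.60), or -0.14 without APP/PS1 replicate 3.

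Of 18 Src-family genes and Fyn regulators tested, 8 lay above 0 and 10 below, with a median of -0.078, or 0.034 without APP/PS1 replicate 3. Ptprc encodes CD45, a phosphatase of immune cells that acts on Src-family kinases, with 4.35 ± 0.453 CPM in APP/PS1 libraries, against 3.35 ± 0.352 CPM in WT libraries (SD over 3 each). Its log2 fold change was 0.38 (SE 0.16; edgeR adjusted p = 0.887), or 0.44 without APP/PS1 replicate 3. The summed level of 10 microglial markers was 167 to 278 CPM in APP/PS1 libraries and 235 to 272 CPM in WT libraries. Of 24 genes of tau turnover and acetylation, 15 lay above 0 and 9 below, with a median of 0.033, or 0.045 without APP/PS1 replicate 3. Sirt1, a deacetylase of tau, had 0.35 (SE 0.17), or 0.14 without APP/PS1 replicate 3, and the heat shock gene Hspa1b had 0.43 (SE 0.21), or 0.54 without it.

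**Figure D5:**
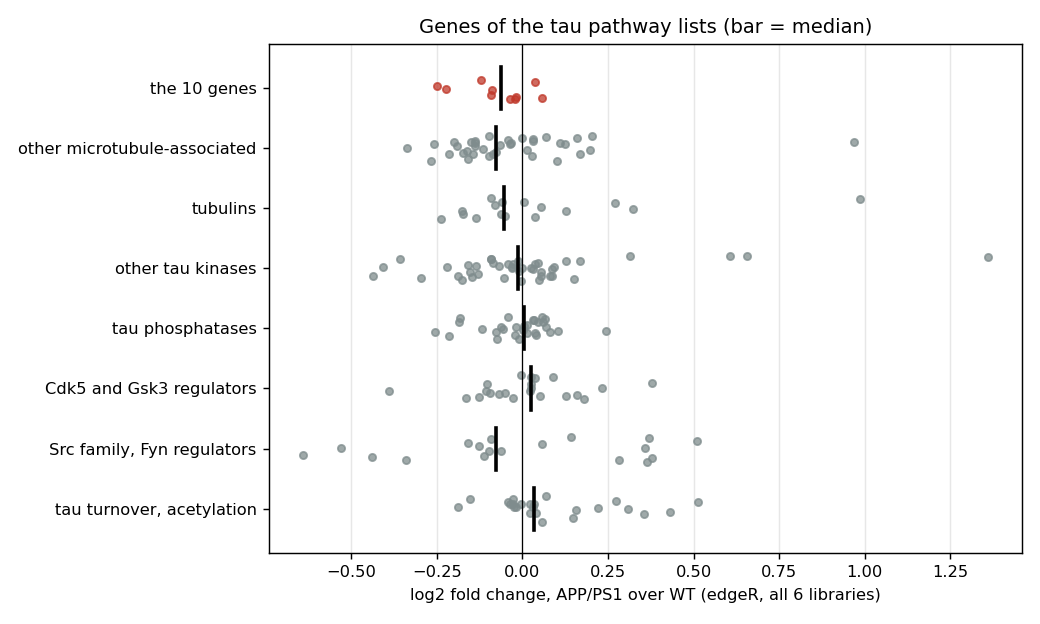
Log2 fold change, APP/PS1 over WT (x axis, edgeR with all 6 libraries), of the 10 genes (red, top) and of the genes in 7 pathway lists (grey), 1 point per gene with the median as a black bar. Medians lie between -0.078 and 0.033, and no point passed the test over all genes.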

How the data were processed

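Total RNA libraries from hippocampus were analysed, 3 from APP/PS1 and 3 from WT mice, grouped by their titles and taken as separate animals; if they are not, p-values measure only the spread between these libraries. HISAT2, StringTie and DESeq appear in the submitters' processing notes with no version or role, beside the build mm10. The deposited values are estimated counts, whole numbers for each gene symbol. How the authors counted, and with which annotation, strand setting and filter, is not given in the sources used here. Low values crowd at 4 (1817 times, against 897 for 3), so 1 fragment may stand for about 4 estimated counts and depth in fragments is uncertain. The smallest count of a member in a library was 5850, so the spread between libraries set the precision. The biological coefficient of variation was 26.5%, or 19.7% without APP/PS1 replicate 3. Symbols were matched to RefSeq GRCm38.p6 (97.3%).

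APP/PS1 was compared with WT by edgeR 4.0.16 (quasi-likelihood, TMM, default filter, no covariate; R 4.3.3), with Benjamini-Hochberg adjustment over all genes and a threshold of 0.05; SE is the fold change divided by the square root of F. The procedure was run on counts simulated from the mean levels and dispersions of these data. No simulated library differed from the others in tissue, so that run does not test calls with a library like APP/PS1 replicate 3. Alternatives were other size factors and filters, DESeq2 1.42.0, limma-voom 3.58.1 with and without quality weights, division by 4, a replicate block and leaving out each library. Members and lists were chosen with earlier results of these data known. Named genes were the members, App, Prnp, the 2 of each list with the smallest p and the 5 nearest to Mapt; 1 gene that the rule took is not reported here. Of the listed symbols, Cip2a, Oga and Ppp2r4 were not matched. miRNA and circular RNA values were not used here.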

Additional observations from a re-analysis of the deposited data

How the results depend on the processing

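No member was called under any of the 15 other settings, with adjusted p never below 0.563. Genes called over all genes numbered 1, against 24 with DESeq2, 5 with quality weights, 2 with the replicate block and 0 to 6 with 1 library left out (0 without WT replicate 1, with 371 genes at an unadjusted p under 0.05, or without WT replicate 2, with 345). App was called with DESeq2, with quality weights and without APP/PS1 replicate 3 (adjusted p = 0.0136), as was Prnp (log2 fold change 1.04). Only replicate numbers 1 and 2 occur in both genotypes. Deviations from the group means correlated at 0.17 for number 1 and -0.032 for number 2. The numbers were therefore not taken to pair the mice. In the replicate block, a library whose number occurs in 1 genotype only takes its own term and adds nothing to the fold change. That setting thus compares replicates 1 and 2 alone. It is not a separate check from leaving out APP/PS1 replicate 3. Fold changes of 5 members changed sign under some setting, 15 of 150 values, all uncalled. On the log2 scale, quality weights gave 0.044 for Map1b, 0.018 for Map2, 0.0081 for Gsk3b and 0.016 for Mark1, and the replicate block gave 0.040, 0.068, 0.021 and 0.00071 for the same genes, -0.096 for Tuba8, -0.042 for Mapk12, -0.13 for Tubb3, -0.035 for Ppme1 and 0.0011 for the tubulin median. With 1 library left out the range was -0.078 to 0.052 for Mapt, -0.21 to 0.051 for Map1b, -0.23 to 0.058 for Map2, -0.069 to 0.0047 for Gsk3b, -0.066 to 0.0083 for Mark1, -0.14 to 1.35 for Tuba8 and -0.042 to 1.76 for Mapk12. The log2 differences of ratios ranged from -0.27 to 0.14 for Map2 to Mapt and from -0.0068 to 0.11 for Map1b to Map2. Upper-quartile scaling put the list medians of CDK5 and GSK3 regulators at -0.011 and of tau turnover at 0.00053, and the block put the last at 0.082. Medians with 1 library left out ranged from -0.12 to 0.034 for Src-family genes, -0.094 to -0.035 for microtubule-associated genes and -0.011 to 0.017 for CDK5 and GSK3 regulators. Apart from this limit of the replicate block, the cause of these shifts was not tested.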
